A study of Mus musculus with 3 samples.

Results

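The genes described here are 9 kinases of the mitogen-activated protein (MAP) kinase pathways: the TAO kinases *Taok1*, *Taok2* and *Taok3*, the MAP kinase kinases *Map2k1* and *Map2k2*, and the MAP kinases *Mapk3*, *Mapk8*, *Mapk9* and *Mapk14*. Their probes were taken by gene name, with no threshold on the values, and they are 9 of 27951 gene names on the array. All probes carrying 1 of these names were used, which gave 23 probes and 50 spots per array.

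The samples were mast cell progenitors (MCps) from 3 WT mice and 3 *p85α-/-* mice, which lack the p85α regulatory subunit of class IA PI3 kinase. Low density mononuclear cells of the marrow spent 7 days in IL-3 (10 ng/mL). Cells carrying both KIT and the IgE receptor were then sorted and kept for 48 hours in SCF (100 ng/mL), which binds KIT. Both genotypes received the same IL-3 and SCF, and no culture without SCF was analysed here, so the values compare genotypes under SCF and do not measure a response to it. Each of 3 Agilent whole mouse genome arrays was hybridized with cDNA of 1 WT culture labeled with Cy3 and 1 *p85α-/-* culture labeled with Cy5, and the cDNA had been amplified by PCR because few cells were available. No array had the dyes swapped, so dye and genotype cannot be told apart in any ratio given here. In sorted cultures such as these, fewer cells of a type and less RNA per cell cannot be told apart either.

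MAP kinases act at the end of kinase cascades, in which a MAP kinase kinase kinase activates a MAP kinase kinase, which in turn phosphorylates the MAP kinase. In mast cells the cascades carry signals from KIT and the IgE receptor to growth, survival and cytokine genes. The ERK branch runs through Ras and Raf, while the JNK and p38 branches respond to stress and cytokines. The TAO kinases belong to the STE20 family and can act at the top of the JNK and p38 branches. These proteins are regulated mainly by phosphorylation, which an mRNA array does not measure.

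Of the 23 probes, 0 passed 1.5-fold with an unadjusted p under 0.05, and 0 had an adjusted p under 0.05 (limma with Benjamini-Hochberg adjustment over all probes). Over all 41157 probes tested, 4.44% passed the first rule (2.78% higher and 1.66% lower in *p85α-/-*), and with median centring in place of quantile normalization the share of these calls that were higher went from 62.6% to 91.1%. Without replicate 2 it was 47.5%. The second rule was passed by 0 probes, where 1829 probes had an unadjusted p under 0.05 and no adjusted p was below 0.763. The methods' t-test also gave 0 probes after adjustment, with 1755 probes at an unadjusted p under 0.05 unpaired and 1501 paired. The lowest unadjusted p among the kinases was 0.0617, at a probe of *Taok3*, and their adjusted p ranged from 0.908 to 0.999.

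The log2 ratio (*p85α-/-* over WT) had a mean above 0 at 13 probes, where 44.8% of all probes did, and below 0 at 10, with a median of 0.06 against -0.05 over all probes. At 4 of the 23 probes the 3 arrays shared a sign, while 25.8% of all probes did so. These were *Map2k1* and *Mapk14* on the higher side and 2 probes of *Mapk8* on the lower side. The kinase probes varied more between arrays than most: their median SD over the 3 arrays was 1.09 on the log2 scale, against 0.67 over all probes. At 19 of the 23 probes the mean was smaller than its SD. The mean was at least as large as its SD at 4 of the 23, and at 20.3% of all probes.

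**Figure D1:**
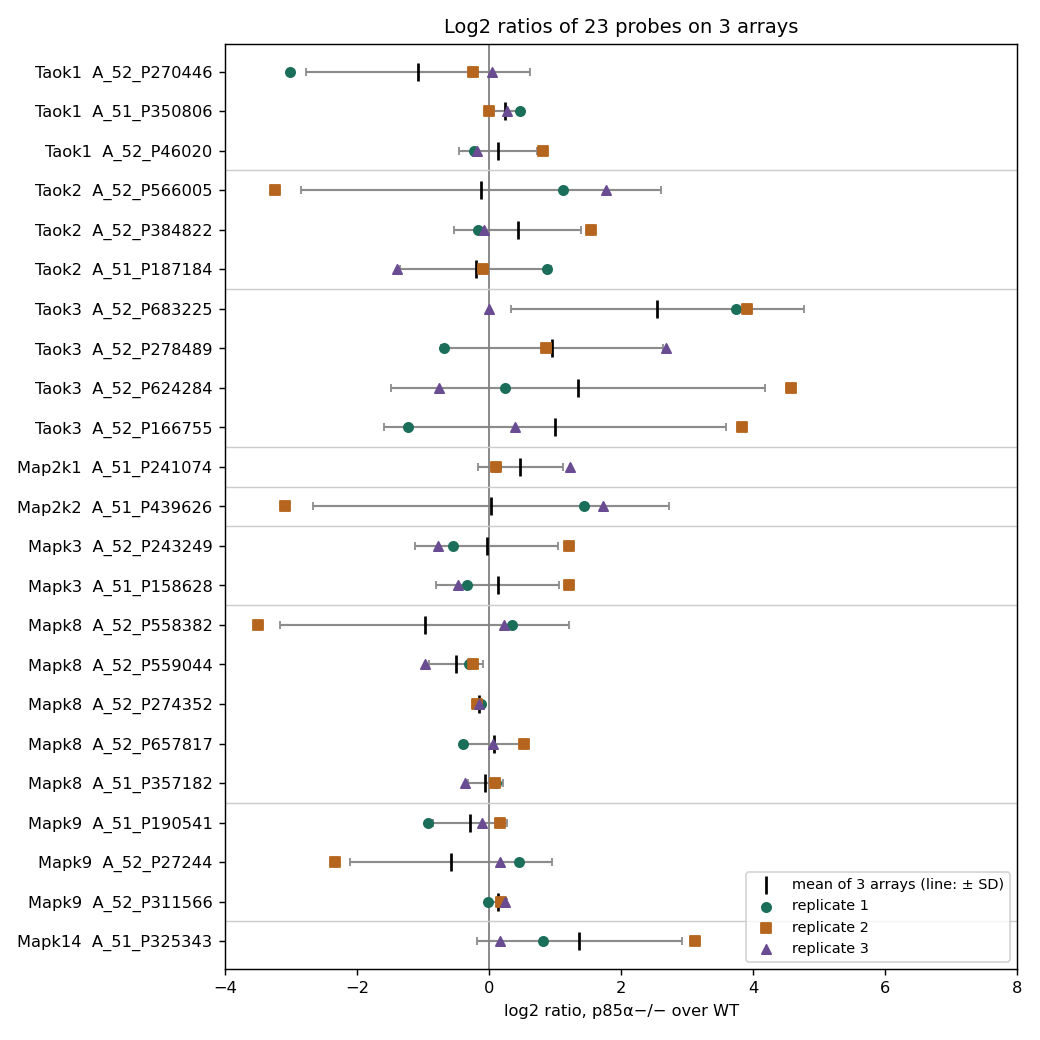
The log2 ratio of *p85α-/-* over WT (x axis) is plotted for each of the 23 probes (rows, grouped by gene) on each of 3 arrays (symbols), with the mean (black tick) and SD (grey line). The means lie between -1.08 and 2.55, and at 19 of the 23 probes the mean is smaller than its SD.

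The comparison that the gene choice asked for is that of *Taok3*, a TAO kinase also known as a JNK inhibitory kinase, with *Taok1* and *Taok2*. All 4 *Taok3* probes had a mean log2 ratio above 0 with each normalization of the scanner files. Without replicate 2, however, 2 of the 4 were below 0 (-0.42 and -0.26). In the authors' deposited table of ratios, where the values of replicates 2 and 3 mostly differ from the scanner's at the probe they are named for, 2 of the 4 were also below 0, at -0.66 and at -1.80, the latter past 1.5-fold with a limma unadjusted p of 0.0372. The other 5 genes with several probes each had probe means of both signs, but this contrast depended on the setting. The probe means also shared a sign for *Taok1*, *Taok2*, *Mapk3* and *Mapk8* with median centring, for *Mapk3* and *Mapk8* with the software's processed signals or log ratio, for *Mapk8* with dim probes left out, for *Mapk3* with any 1 replicate left out, and for *Mapk3* and *Mapk9* in the deposited table. Over its probes *Taok3* averaged 0.52 in replicate 1, 3.29 in replicate 2 and 0.57 in replicate 3. The 6 probes of *Taok1* and *Taok2* averaged -0.16, -0.21 and 0.07 on the same arrays. By gene, *Taok1* averaged -0.93, 0.18 and 0.04 and *Taok2* 0.61, -0.60 and 0.09, so *Taok2* was above *Taok3* in replicate 1. The mean of *Taok3* was above the pooled mean of these 6 probes on all 3 arrays, by 0.68, 3.50 and 0.50. The mean difference was 1.56 ± 1.68 on the log2 scale (SD, n = 3 arrays). Replicate 2 stood apart, and without it the difference was 0.59. In the deposited table it was 0.07 ± 1.08. No p is given for this score, since an exact sign-flip test on 3 arrays cannot go below 0.25.

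The *Taok3* probe with the brightest signal (A_52_P683225) gave the highest mean ratio of all 23. It is the brightest over the 6 cultures only through its high *p85α-/-* cultures, since in WT alone A_52_P278489 was brighter (mean 8.49 against 8.30), and that probe had a mean log2 ratio of 0.95 ± 1.68. At A_52_P683225 the normalised log2 intensity was 8.32, 8.09 and 8.48 in the WT cultures of replicates 1, 2 and 3, and 12.07, 12.00 and 8.48 in the *p85α-/-* cultures. The *p85α-/-* cultures of replicates 1 and 2 were far above every WT culture, by 13.4-fold and 15.0-fold over the WT culture on their own array, and that of replicate 3 was at the WT level. The mean log2 ratio was 2.55 ± 2.22 (SD, n = 3 arrays; limma adjusted p = 0.908). Without replicate 1 it was 1.95 (limma unadjusted p = 0.204), without replicate 2 it was 1.87 (limma unadjusted p = 0.246), and without replicate 3, the array with no rise, it was 3.83 and passed 1.5-fold (limma unadjusted p = 0.00198). Each of these fits rests on 2 arrays.

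The other *Taok3* probes were high in other cultures. Probe A_52_P624284 read 7.73, 8.15 and 8.74 in WT and 7.96, 12.72 and 7.98 in *p85α-/-* cultures. Probe A_52_P166755 read 9.06, 7.92 and 7.49 in WT and 7.83, 11.76 and 7.87 in *p85α-/-* cultures. At both of these probes the *p85α-/-* culture of replicate 2 was far above the other 5, and at the latter the WT culture of replicate 1 was the next highest, over 2-fold above the *p85α-/-* culture on its array. Probe A_52_P278489 read 8.60, 8.26 and 8.62 in WT and 7.91, 9.12 and 11.30 in *p85α-/-* cultures, so that replicate 3, which was at the WT level at the brightest probe, was the highest here. All 4 probes were well above background in all 6 cultures.

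The annotation of the array gives coordinates without a genome build, and places the 4 probes on the plus strand of chromosome 5. From the lowest coordinate up they are A_52_P278489 (chr5:116416715-116416774), A_52_P166755 (chr5:116455030-116455089), A_52_P624284 (chr5:116482337-116485584) and A_52_P683225 (chr5:116503480-116503539). The second starts 38.3 kb after the first, the third 65.6 kb and the last 86.8 kb. In replicate 1 the ratio was high only at the last probe, with log2 ratios of -0.68, -1.23, 0.23 and 3.74 in this order. In replicate 2 it was low at the first and high at the rest, at 0.86, 3.83, 4.57 and 3.91. In replicate 3 the order was turned, with 2.67 at the first and 0.38, -0.76 and -0.01 at the rest. None of the 4 probes was therefore high on all 3 arrays, and the sequence between them was not measured. The annotation ties the probes to 3 cDNA accessions, of which A_52_P624284 and A_52_P683225 share 1, and whether each lies in an exon, an intron or a UTR was not analysed here.

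**Figure D2:**
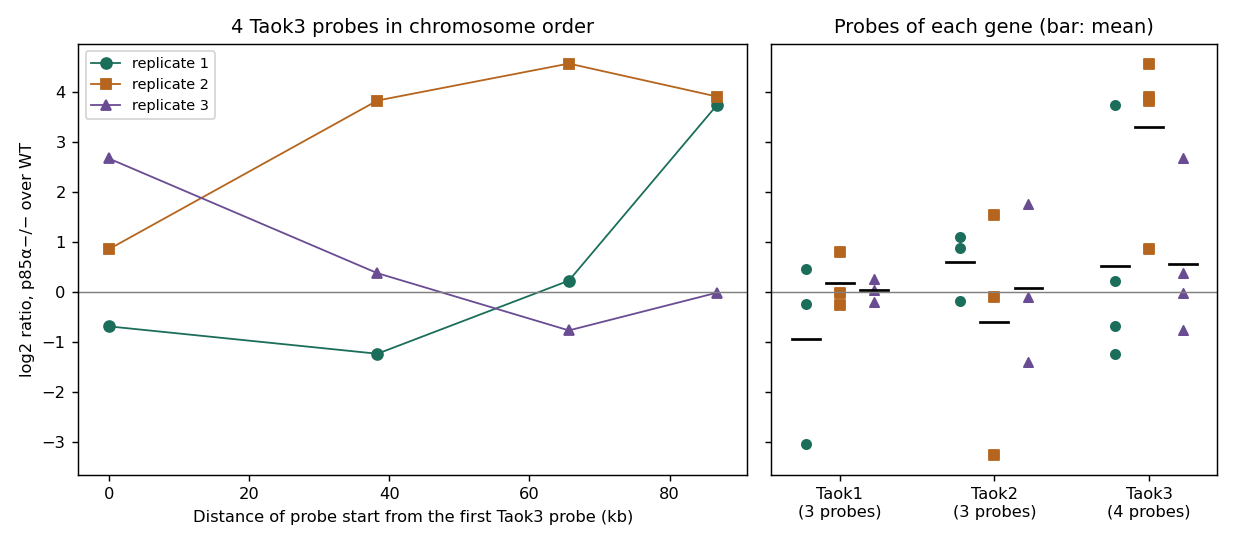
Left, the log2 ratio of *p85α-/-* over WT (y axis) at the 4 *Taok3* probes against the distance of each probe's start from the first (x axis, kb), 1 line per array. Right, the same ratio for every probe of *Taok1*, *Taok2* and *Taok3* on each array, with the mean over the gene's probes as a bar. The 4 highest values of *Taok3* lie between 3.74 and 4.57, and 3 of them are from replicate 2.

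Of the 12 *Taok3* ratios, 5 were over 2-fold higher in *p85α-/-* and 1 was over 2-fold lower. Of the 18 ratios of *Taok1* and *Taok2*, 3 were over 2-fold higher and 3 over 2-fold lower. *Taok1*, also known to phosphorylate MAP kinase kinases of the p38 branch, had no probe well above background in all 6 cultures. Its brightest probe (A_52_P270446) read 10.29, 7.01 and 6.94 in WT and 7.26, 6.76 and 6.99 in *p85α-/-* cultures, where the WT culture of replicate 1 alone was high and set the mean of -1.08 ± 1.69 (SD, n = 3). The other probes of *Taok1* had means of 0.24 ± 0.24 and 0.13 ± 0.59. The last of these was not well above background in any WT culture and was so in 1 *p85α-/-* culture, and its log2 ratios of -0.24, 0.81 and -0.19 gave no direction (limma adjusted p = 0.967).

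*Taok2* is a TAO kinase known for its work on the cytoskeleton of neurons besides MAP kinase signaling. Its brightest probe (A_52_P566005) read 10.73, 11.72 and 9.35 in WT and 11.85, 8.47 and 11.11 in *p85α-/-* cultures. The genotypes overlapped fully, and the ratio was below WT in replicate 2 (-3.25) and above it in replicates 1 and 3 (1.11 and 1.77). The other *Taok2* probes had means of 0.43 ± 0.96 and -0.20 ± 1.14, with replicate 2 highest at the former and replicate 1 at the latter. No probe of *Taok2* kept its sign over the 3 arrays.

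*Map2k1* and *Map2k2* encode MEK1 and MEK2, which activate ERK1 and ERK2. *Map2k1* read 8.53, 9.0 and 9.53 in WT and 8.63, 9.09 and 10.75 in *p85α-/-* cultures. Replicates 1 and 2 were nearly level between genotypes, at log2 ratios of 0.10 and 0.09, and replicate 3 was higher in *p85α-/-*, at 1.22. The mean was 0.47 ± 0.65 (SD, n = 3; limma adjusted p = 0.908). *Map2k2* read 11.01, 13.57 and 10.73 in WT and 12.45, 10.48 and 12.45 in *p85α-/-* cultures. The ratios of 1.44, -3.09 and 1.72 cancelled to a mean of 0.02 ± 2.70, and without replicate 2 the mean was 1.58 with an unadjusted p of 0.0172 in limma. The opposite sign of replicate 2 at *Map2k2* was also seen at the brightest *Taok2* probe.

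*Mapk3* encodes ERK1, the MAP kinase at the end of the ERK branch. Its 2 probes overlap by 55 bases on chromosome 7 (chr7:122862017-122862076 and chr7:122862022-122862079, in the array's annotation). They read nearly the same target in the same labeled cDNA, so their likeness shows the precision of the array and is no independent check of the gene. The first read 13.41, 10.51 and 13.15 in WT and 12.87, 11.72 and 12.38 in *p85α-/-* cultures, and the second, printed in 10 spots, read 12.74, 9.99 and 12.46 in WT and 12.39, 11.20 and 11.98 in *p85α-/-* cultures. The WT culture of replicate 2 was the lowest at both. Their log2 ratios were -0.55, 1.21 and -0.78 at the first probe and -0.34, 1.2 and -0.48 at the second, so that they differed by 0.205, 0.00466 and 0.297 while the arrays differed by up to 1.99. The means were -0.04 ± 1.09 and 0.13 ± 0.94 (SD, n = 3), both smaller than their SD.

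*Mapk8* encodes JNK1, and none of its 5 probes was well above background in all 6 cultures. At its brightest probe (A_52_P558382) the WT culture of replicate 2 read 10.13 and the other 5 cultures between 6.47 and 6.85. That culture alone gave the mean of -0.98 ± 2.19 (SD, n = 3), and without replicate 2 the mean was 0.28. Probe A_52_P559044 read 7.32, 7.04 and 7.77 in WT and 7.01, 6.80 and 6.80 in *p85α-/-* cultures. It was the only kinase probe at which all *p85α-/-* cultures were below all WT cultures, against 5.94% of all probes, with a mean of -0.51 ± 0.41 (limma adjusted p = 0.908) and 2 of 3 cultures of each genotype well above background. No kinase probe had all *p85α-/-* cultures above all WT cultures, against 4.54% of all probes. The remaining *Mapk8* probes had means of -0.15 ± 0.03, 0.06 ± 0.46 and -0.06 ± 0.26, each well above background in 1 culture of each genotype. At the first of them (A_52_P274352) the software's log2 ratios were -1.05, 0.32 and -2.32. Its small SD and its shared sign over the 3 arrays did not hold there.

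*Mapk9* encodes JNK2, and its probes were well above background in all 6 cultures. The brightest (A_51_P190541) read 10.24, 9.81 and 9.71 in WT and 9.32, 9.97 and 9.60 in *p85α-/-* cultures, a mean log2 ratio of -0.29 ± 0.57 (SD, n = 3). Probe A_52_P27244 read 7.82, 9.62 and 7.93 in WT and 8.27, 7.28 and 8.10 in *p85α-/-* cultures, where the WT culture of replicate 2 was again the highest and the mean was -0.58 ± 1.53. The third probe was nearly level, at -0.02, 0.17 and 0.24 on the log2 scale (0.13 ± 0.14), the smallest SD among the kinase probes well above background in all 6 cultures.

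*Mapk14* encodes p38α, the main p38 kinase of most tissues. Its 1 probe read 7.32, 7.62 and 7.23 in WT and 8.14, 10.75 and 7.39 in *p85α-/-* cultures. Each *p85α-/-* culture was above the WT culture on its own array, by log2 ratios of 0.81, 3.12 and 0.16, while the *p85α-/-* culture of replicate 3 lay below the WT culture of replicate 2. The mean of 1.36 ± 1.56 (SD, n = 3; limma adjusted p = 0.908) was the next highest after that of the brightest *Taok3* probe, and replicate 2 contributed most of it.

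**Figure D3:**
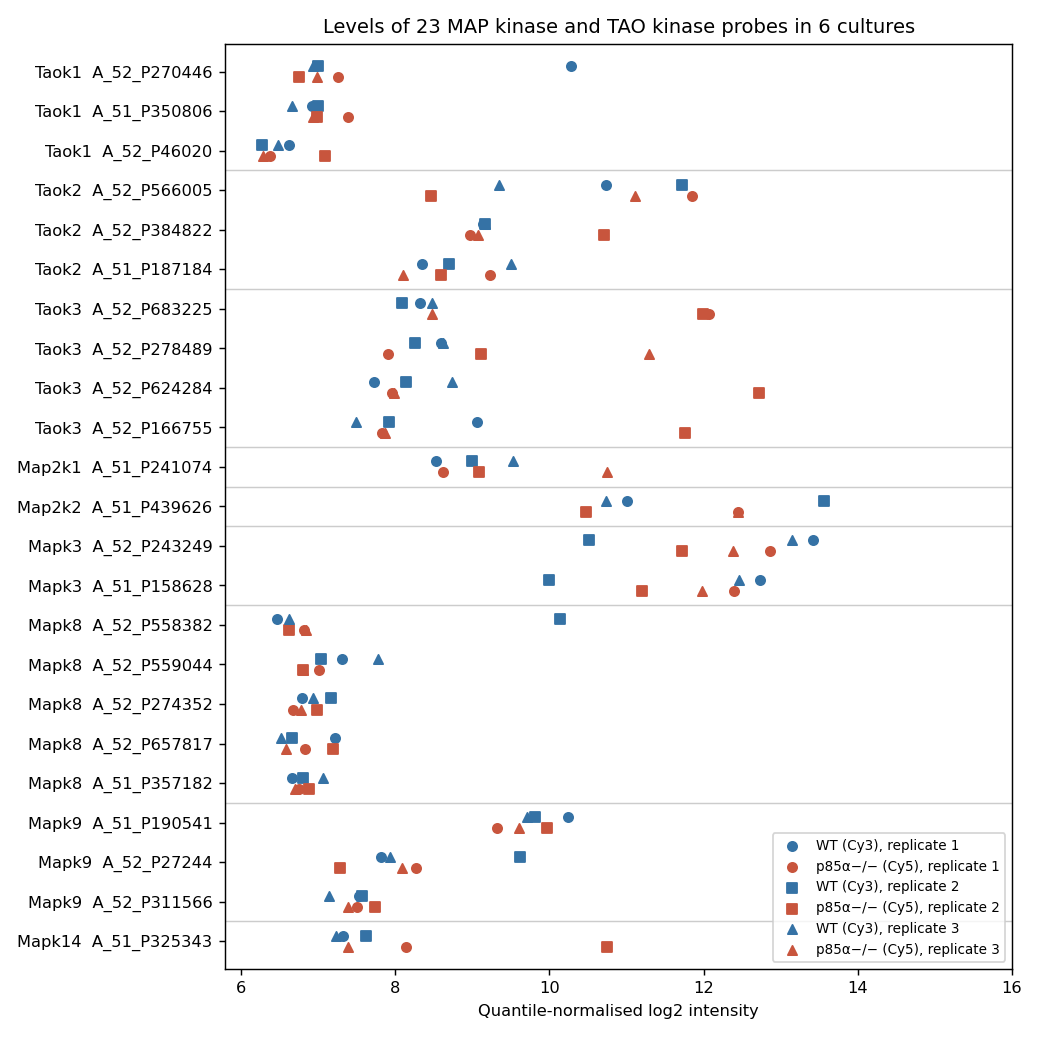
The quantile-normalised log2 intensity (x axis) of each of the 23 probes (rows) is shown in the 3 WT cultures (blue) and the 3 *p85α-/-* cultures (red), with 1 symbol per replicate. Levels can be compared along a row and not between rows, and single cultures far to the right of the other 5 are seen at probes of *Taok1*, *Taok3*, *Mapk8* and *Mapk14*.

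A single raised culture was common among these probes. In a description chosen after the values were seen, 1 culture lay at least 2 log2 units above all the other 5 at 6 of the 23 kinase probes, against 9.23% of all probes. The raised culture was a *p85α-/-* culture at 4 probes, 3 of them in replicate 2 (*Taok3* A_52_P624284, *Taok3* A_52_P166755 and *Mapk14*), and a WT culture at 2 (*Taok1* A_52_P270446 and *Mapk8* A_52_P558382).

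Repeated spots measured how far the array reading itself could vary. The 10-spot probes of *Mapk3*, *Mapk8* and *Mapk14*, of which 8 to 10 spots were kept per array, gave SDs between spots of 0.0250 to 0.0613, 0.0824 to 0.156 and 0.0718 to 0.158 on the log2 ratio. Over arrays the SDs were 0.94, 0.26 and 1.56. The spread between arrays was thus larger than that between spots for each of these genes. The spots share 1 labeled cDNA, so they measure the array and not the amplification or the culture, whose parts in the spread were not tested.

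**Figure D4:**
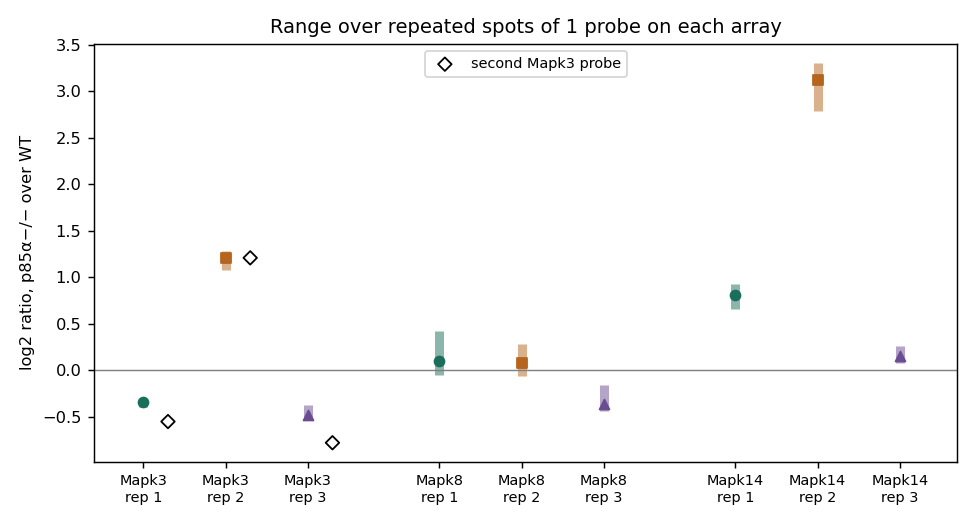
The log2 ratio of *p85α-/-* over WT (y axis) is given for the 10-spot probes of *Mapk3*, *Mapk8* and *Mapk14* on each array (x axis), with the range over spots as a bar and the mean as a symbol; diamonds are the overlapping *Mapk3* probe with 1 spot. The spots of *Mapk14* lie between 2.79 and 3.30 in replicate 2 and between 0.0801 and 0.264 in replicate 3.

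The other genes of the pathways were taken as 6 lists of known members, of which 87 of 88 genes were found, each at its brightest probe. Of the 87, 4 were higher and 2 lower in *p85α-/-* at 1.5-fold and an unadjusted p under 0.05, or 6.90%, against 5.21% of all gene names (3.14% higher and 2.08% lower). The adjusted p was under 0.05 for 0 of them, and the lowest was 0.763. The median log2 ratio was 0.20, against -0.07 over all gene names. With median centring 9 were higher and 0 lower, so that the 2 lower genes no longer passed, and without replicate 2, 6 were higher and 6 lower. With each gene taken at the probe brightest in WT, an alternative chosen after the values were seen, 3 were higher and 2 lower, or 5.75% against 4.92% of all gene names, and the median was 0.0330.

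Among regulators that restrain MAP kinases, 2 of 11 genes found were higher and 0 lower, and the median log2 ratio was 0.33. Without replicate 3 the median was -0.15, with 4 of 11 genes above 0. *Spred1*, an inhibitor of the Ras to ERK branch, gave the highest value of all list genes. It read 9.33, 8.32 and 7.77 in WT and 12.65, 11.47 and 11.85 in *p85α-/-* cultures, which did not overlap. Its log2 ratios were 3.32, 3.15 and 4.08, a mean of 3.52 ± 0.49 (SD, n = 3; limma unadjusted p = 0.000497, adjusted p = 0.763). Its other probes had means of 2.43 ± 2.23 and 1.6 ± 2.29, and in replicate 3 both were near 0 (-0.11 and -0.16). *Dusp10*, a phosphatase of JNK and p38, had 1 probe with log2 ratios of 2.80, 0.57 and 3.85, a mean of 2.41 ± 1.68 (limma adjusted p = 0.908). Over 14 alternatives the mean of *Dusp10* ranged from 1.48 to 3.89, past 1.5-fold in each, but under 6 of them its unadjusted p was not under 0.05. Among these were the fits without replicate 1 (2.21, limma unadjusted p = 0.122) and without replicate 3 (1.68, limma unadjusted p = 0.113).

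Among STE20 kinases other than TAO, 1 of 17 was higher, 0 were lower and the median was -0.01. The 1 was *Stk24*, which encodes MST3. It read 7.69, 7.35 and 8.52 in WT and 11.08, 9.94 and 10.85 in *p85α-/-* cultures without overlap, a mean of 2.77 ± 0.55 (SD, n = 3; limma unadjusted p = 0.00142, adjusted p = 0.763). Over 14 alternatives at this probe the mean ranged from 0.81 to 3.66, and it did not pass the rule in the deposited table. Its other probe went the opposite way on 2 of 3 arrays, with a mean of -0.74 ± 1.07. The probe that passed is the brighter only through its *p85α-/-* cultures, as the WT means of the pair were 7.85 and 7.87. With probes taken by WT level, 0 of the 17 passed and the median was -0.35. In the JNK list, 1 of 15 was higher, 0 were lower and the median was 0.58, which was 1.21 with median centring, 0.27 with the mean over each gene's probes and -0.0415 in the deposited table. The gene was *Mapk8ip3*, the scaffold JIP3, with log2 ratios of 4.30, 2.25 and 1.35 and a mean of 2.63 ± 1.51 (limma adjusted p = 0.908), while its other probe averaged 0.10 ± 0.31. It failed the rule under 4 of 14 alternatives: without replicate 2 (2.82, limma unadjusted p = 0.0813), in the deposited table (1.5, limma unadjusted p = 0.357) and under both forms of the methods' t-test. The number of JNK list genes that passed also depended on the setting. With processed signals 4 of the 15 passed, and with the log ratio also 4, against 5.13% and 5.09% of all gene names. With loess or median centring 1 passed, and without replicate 1, 2 or 3 the number was 2 each time. In the deposited ratios 0 of the 15 passed.

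In the p38 list, 0 of 12 were higher, 1 was lower and the median was 0.15. The lower gene was *Mapkapk3*, a kinase activated by p38, with log2 ratios of -0.93, -0.73 and -1.38 and a mean of -1.01 ± 0.33 (SD, n = 3; limma adjusted p = 0.908). Of the 11 immediate early genes, which SCF and other growth factors switch on for a short time, 0 were higher and 1 was lower, with a median of -0.02. With median centring 3 of the 11 passed, all as higher, against 7.63% of all gene names, and the median was 0.82. *Fosl2*, a FOS family factor, read 15.28, 15.37 and 14.18 in WT and 13.00, 13.20 and 13.48 in *p85α-/-* cultures, a mean of -1.72 ± 0.88 (limma adjusted p = 0.908), and its other probe, not well above background in any WT culture, averaged 0.47 ± 0.43. With median centring *Fosl2* was at -0.43 (limma unadjusted p = 0.627) and *Mapkapk3* at -0.24 (limma unadjusted p = 0.517), and in the deposited table they were at -0.88 and 0.13. *Fosl2* also failed the rule without replicate 1 (-1.44, limma unadjusted p = 0.0865) and without replicate 2 (-1.49, limma unadjusted p = 0.0972). *Mapkapk3* failed it without replicate 1 (-1.05, limma unadjusted p = 0.0867), without replicate 3 (-0.83, limma unadjusted p = 0.101) and with no replicate block (limma unadjusted p = 0.11). *Fos* was not well above background in any culture. In the Ras to ERK list, 0 of 21 passed in either direction and the median was -0.05. Without replicate 2, 3 of the 21 passed, against 9.33% of all gene names. With median centring, with processed signals, and without replicate 1 or replicate 3, 1 passed. The list's highest gene was *Mknk2*, a kinase downstream of ERK, at 1.90 ± 1.66, and its lowest was *Ksr1*, a scaffold of the branch, at -1.31 ± 1.78.

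**Figure D5:**
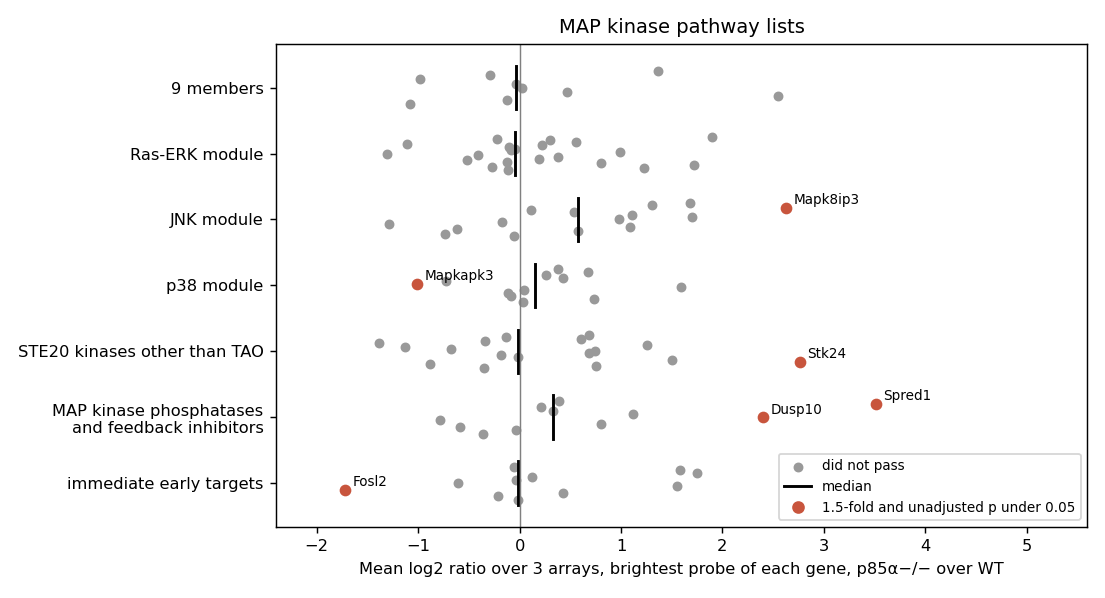
The log2 ratio (*p85α-/-* over WT, mean of 3 arrays, x axis) is shown for the brightest probe of each gene in the 9 kinases and the 6 pathway lists (rows, 1 point per gene), with the list median as a black tick. Genes past 1.5-fold with an unadjusted p under 0.05 are named, and none of the 9 kinases is among them. *Stk24* did not pass at its probe brightest in WT.

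Likeness to the brightest *Taok3* probe was described over the 6 cultures. The genes with the highest Pearson r were *Ttc16* (0.992), *Prkce* (0.992), *Pde1b* (0.991), *A430107D22Rik* (0.990) and *Gpr97* (0.990), out of 31819 probes well above background in at least 1 culture of every array, of which 343 had r above 0.9. Each of these genes was raised in the *p85α-/-* cultures of replicates 1 and 2 and not in that of replicate 3. The other *Taok3* probes had r of -0.25, 0.58 and 0.53 with it, and *Mapk14* had 0.77. With 6 cultures that share arrays in pairs, these values describe the pattern and carry no p.

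The replicates differed in ways that touch these genes. The log2 ratios of different arrays were hardly related over all probes (Pearson r = 0.01, 0.17 and -0.03 across probes, which are not independent replicates), and the median signal of *p85α-/-* cultures before normalization was 211, 517 and 207 against 76.1, 71.5 and 141 in WT. Replicate 2, the array with the widest gap, gave the log2 ratio farthest from 0 for 7 of the 9 genes, while that of *Taok1* (-3.03) was in replicate 1 and that of *Map2k1* (1.22) in replicate 3. By probe it did so at 14 of the 23, against 35.5% of all probes. All 13 mast cell markers were found, 12 of them well above background in all 6 cultures, and the log2 of their summed normalised intensity was 15.40 to 16.15 in WT and 16.81 to 17.50 in *p85α-/-* cultures. On the same scale the 7 neutrophil markers summed to 12.97 to 14.19 in WT and to 16.09, 11.48 and 17.80 in the *p85α-/-* cultures of replicates 1, 2 and 3. *Mpo* made up most of these sums, at 15.48, 10.68 and 17.59 in the *p85α-/-* cultures. Of the 7, 3 were higher on all 3 arrays and 0 lower, and *Ltf* and *Ngp* had means below 0 (-0.55 and -0.11). Macrophage markers (5 of 5 found) summed to 11.25 to 12.74 in WT and 11.31 to 11.68 in *p85α-/-*, basophil markers (3 of 4) to 10.50 to 13.18 and 12.30 to 12.71, and erythroid markers (4 of 4) to 12.49 to 12.82 and 11.40 to 13.60. The part of these cell types or of signal level in the kinase values was not tested. The targeted gene, *Pik3r1*, had 4 probes with mean log2 ratios of -0.04, 0.32, -0.58 and 0.59, so these probes did not settle the genotype labels, and whether they lie in the deleted part was not analysed here.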

How the data were processed

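For each array the authors deposited the output of Agilent Feature Extraction 9.5.1.1, and for the series a value table. The intensity columns deposited hold each spot's mean signal and background median, without normalization, beside the software's processed signals and log10 ratio of red over green. The value table deposited by the authors gives log10 ratios. In replicate 1 it equals the scanner's ratio on 40912 of 40912 probes with 1 spot, but in replicates 2 and 3 it does so on 190 and 226, and on 0 of 20 kinase probes with 1 spot in either (tolerance 1.5e-05). It was used only as an alternative.

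Mean signals were background corrected (normexp, offset 50) and quantile normalization was applied over the 6 channels, in R 4.3.3 with limma 3.58.1. Control and outlier spots were left out and spots of a probe averaged. Log2 ratios of 41157 of 41174 probes were fitted with an intercept (lmFit, eBayes), which pairs the cultures of an array. All arrays shared 1 slide and 1 day of scanning and held 0 saturated spots. The sample labels give no batch of culture, sorting or amplification, so none could be tested. The number of arrays limits the precision.

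The kinases, the gene lists and the markers were chosen with earlier results of these data known. The genes named are the 9 kinases, *Pik3r1*, list genes past 1.5-fold with an unadjusted p under 0.05 (where a list had none, its highest and lowest), and the 5 most like the brightest *Taok3* probe. A gene's brightest probe is that with the highest mean level over the 6 channels, which can favour a probe high in 1 genotype. Of the 23 probes, 9 had an accession that matched their gene in a RefSeq table of GRCm38.p6 and 14 had one not in it. *Fos* was named after its values were seen. *Dusp5* and *Mcpt11* were not found by name. Probe sequences were not used here. The alternatives were loess with Aquantile, median centring, no background subtraction, the processed signals, the software's log ratio, the deposited table, dim probes left out, outlier spots retained, an unpaired and a paired version of the methods' t-test, limma with no block for the array, each replicate left out, the mean over a gene's probes and, added after seeing the data, the probe brightest in WT.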

Additional observations from a re-analysis of the deposited data

How the results depend on the processing

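The brightest *Taok3* probe passed 1.5-fold with an unadjusted p under 0.05 under median centring (3.07), with processed signals (2.93), with dim probes left out (unadjusted p = 0.0459) and with no replicate block, where the pairing by array was dropped (unadjusted p = 0.0488, limma). It accounts for the 1 kinase probe called with no replicate block, with processed signals and with dim probes left out. Median centring called 3 kinase probes, adding both of *Mapk3* (1.36 and 1.5); the deposited table called 1, *Taok3* A_52_P166755 in the other direction (-1.80), and leaving out a replicate called 0 to 2. Median centring also shifted the median over all probes (-0.05) to 0.09 and the share of calls that were higher from 62.6% to 91.1%. Over all probes, 1829 passed (4.44%), against 2692 with median centring (6.54%), 2123 with processed signals (5.16%) and 1262 in the deposited table (3.07%). With dim probes left out 1671 of 31819 passed (5.25%). With a replicate left out 1557 to 3165 passed, or 3.78% to 7.69% (3165 without replicate 2, 47.5% of them higher). The unpaired t-test passed 1125, the paired 819, and limma with no replicate block 1809 (4.40%). The difference between *Taok3* and its relatives was 1.45 to 1.72 under the other normalizations of the scanner files, 0.59 to 2.09 with a replicate left out and 0.07 ± 1.08 in the deposited table. The brightest *Taok3* probe was at 1.95 without replicate 1 and 1.87 without replicate 2, where it did not pass, and at 3.83 without replicate 3, where it did. Leaving out replicate 2 brought past the rule *Map2k2* (1.58) and *Taok2* A_52_P566005 (1.44).

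The sign held under every alternative at 5 of the 23 probes (*Map2k1*, *Mapk14*, *Mapk9* A_52_P311566, *Taok1* A_52_P270446 and *Taok3* A_52_P683225) and changed at 18. In the deposited table it changed for *Map2k2* (-0.83), *Mapk3* A_52_P243249 (0.48), *Mapk8* (0.38, 0.0877, 0.57, 1.40 and -2.32), *Mapk9* (2.96 and 0.47), *Taok2* (-0.35 and 1.17), *Taok3* (-1.80 and -0.66) and *Mapkapk3* (0.13). Median centring changed it for *Mapk3* A_52_P243249 (1.36), *Mapk8* (-0.0453), *Mapk9* (0.41), *Taok1* (-0.0187 and -0.14) and *Taok2* (0.27 and 0.94). Processed signals and the log ratio each changed *Mapk3* A_52_P243249 (0.12) and *Mapk8* (-0.0428), and the mean over a gene's probes changed *Mapk3* (0.0442) and *Taok2* (0.0338). With a replicate left out it changed for 14 probes, which then ranged from -0.21 to 0.31 (*Taok1* A_52_P46020), -1.07 to 1.44, -0.13 to 0.73 and -0.75 to 0.39 (*Taok2*), -0.26 to 2.4 and -0.42 to 2.11 (*Taok3* A_52_P624284 and A_52_P166755), -0.83 to 1.58 (*Map2k2*), -0.66 to 0.33 and -0.41 to 0.43 (*Mapk3*), -1.64 to 0.28, -0.17 to 0.29 and -0.14 to 0.0912 (*Mapk8*), and -0.52 to 0.0264 and -1.09 to 0.303 (*Mapk9*). It did so without replicate 2 at 9 of the 14. The causes were not tested.

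Of the 87 list genes, 5 to 12 passed under the alternatives in the scanner files that kept limma, 3 under either t-test and 0 in the deposited table. Beside the share over all gene names under the same setting, these were 8.05% against 4.23%, 13.8% against 9.33% and 8.05% against 4.76% without replicates 1, 2 and 3, 10.3% against 7.63% with median centring, 9.2% against 5.13% with processed signals, 10.3% against 5.09% with the log ratio, 5.75% against 4.63% with loess, 3.45% against 3.21% and 2.32% with the unpaired and paired t-test, and 0 against 3.09% in the deposited table. Leaving aside the choice of probe, *Spred1* and *Stk24* each passed under 13 of 14 alternatives, all but the deposited table (*Stk24* also failed at its probe brightest in WT), *Mapk8ip3* under 10, *Dusp10* and *Fosl2* under 8 and *Mapkapk3* under 7. The list medians under median centring were 0.52 (Ras to ERK), 1.21 (JNK), 0.57 (p38), 0.50 (STE20) and 0.82 (immediate early). With processed signals and with the log ratio they were 1.07 (JNK) and 0.54 (p38). In the deposited table they were -0.0415 (JNK), 0.38 (STE20) and -0.21 (immediate early). The mean over all probes gave 0.27 (JNK), and leaving out a replicate gave the STE20 list a lowest median of -0.23 and a highest of 0.33 (without replicate 2). Taking each gene's probe brightest in WT changed *Stk24* to -0.74, gave *Taok3* 0.95 in place of 2.55 and moved the STE20 median to -0.35. Leaving out 1 replicate also turned the sign of the medians of Ras to ERK (0.0807 without replicate 1, 0.21 without replicate 3), p38 (-0.00743 without replicate 1), phosphatases and feedback (-0.15 without replicate 3) and immediate early genes (0.0356 without replicate 2). Those 5 turned values and the medians not given moved by less than their SD over arrays.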
